A study of Mus musculus with 24 samples.

Results

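Interferon-inducible GTPases were followed in mouse embryonic fibroblasts (MEF) that lack up to 6 of the enzymes that methylate histone H3 at lysine 9 (H3K9 KMT). The 10 genes are *Gbp2*, *Gbp3*, *Gbp5*, *Gbp7*, *Iigp1*, *Irgm1*, *Irgm2*, *Igtp*, *Mx1* and *Mx2*. They were chosen by symbol among the 47937 gene entries of the counts table, without use of their values in the selection rule, and all 10 are among the 18565 genes with enough counts to be tested. Total RNA was sequenced from 24 cultures, 3 biological replicates in each of 8 conditions. WT cells are the *E1c* line, which carries a conditional *Eset1* (*Setdb1*) allele and an inducible Cre recombinase, without 4-hydroxytamoxifen (4-OHT). Treatment of this line with 4-OHT, which deletes the floxed *Eset1* exons, gives *E1* cells. *E2* cells are a clone of this line with a mutation of *Eset2* (*Setdb2*), without 4-OHT, and *E1E2* cells are that clone after 4-OHT. *E1 S1S2* is a clone with mutations of *Suv39h1* and *Suv39h2*, and *6KO1* is a subclone of it that also lacks *Eset2*, *G9a* (*Ehmt2*) and *Glp* (*Ehmt1*). *E1E2 G9Gl* is a clone derived from the *Eset2* mutant with mutations of *G9a* and *Glp*, and *6KO2* is a subclone of it with further mutations of *Suv39h1* and *Suv39h2*. These last 4 conditions were all collected after 4-OHT. All lines share the conditional allele. Per the study's methods, a construct with inducible Cre, EGFP and a puromycin resistance gene was added to lines after the CRISPR/Cas9 mutations and kept under puromycin, so the CRISPR mutant clones differ from the parent in that too. Each mutant line is 1 clone, and the replicates of a condition come from that clone. Genotype, clone and 4-OHT therefore cannot be told apart in most comparisons, and p-values measure the spread between cultures of 1 line. The sample titles give the 4-OHT state used here, although the treatment field names 4-OHT for every sample.

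Interferons secreted by infected cells act on receptors that switch on STAT and IRF transcription factors, which bind the interferon-stimulated response element (ISRE) or the gamma-activated sequence (GAS) near their target genes. The GTPases studied here are among the most strongly induced of these targets. Guanylate-binding proteins (GBP) and immunity-related GTPases (IRG) assemble on membranes around intracellular bacteria and parasites and help to break them open, and Mx proteins block the replication of RNA viruses. Fibroblasts make all 3 families when they are treated with interferon and hold little of most of them otherwise.

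The promoter sequences of the genes hold the letters these factors are known to bind. RefSeq promoter windows (GRCm38.p6) were matched by symbol for 7 of the 10 genes, with 2 windows for *Gbp3*. The core of the ISRE (GAAA, any 2 bases, then GAAA, read on both strands) was searched in the 250 bases before the start site, as was the GAS motif (TTCNNNGAA, which reads the same on both strands). All 7 genes had an ISRE core in a window, compared with 2.98% of the 32851 RefSeq windows of that length, and 1 of the 2 *Gbp3* windows held none. A GAS match was present in *Gbp5*, *Gbp7*, *Igtp* and *Irgm2*, compared with 7.02% of windows, and 0.332% of windows hold both motifs. The matches of the 2 motifs did not overlap in any member window. A match describes the letters of the window and not the binding of a factor. Stretches around the ISRE core are shown for 5 genes, *Gbp5* and *Gbp2* as genes of 1 cluster whose RNA peaked in different conditions and *Irgm1* beside *Igtp* and *Irgm2* as regulatory IRGs of unequal range, with ISRE core and GAS matches in capitals: *Gbp5* (chr3:142496749-142496919, plus strand), *Gbp2* (chr3:142620502-142620621, plus strand), *Irgm1* (chr11:48871421-48871540, minus strand), *Igtp* (chr11:58199436-58199555, plus strand) and *Irgm2* (chr11:58214857-58214976, plus strand), all 5′ to 3′ on the strand of the gene.
Gbp5: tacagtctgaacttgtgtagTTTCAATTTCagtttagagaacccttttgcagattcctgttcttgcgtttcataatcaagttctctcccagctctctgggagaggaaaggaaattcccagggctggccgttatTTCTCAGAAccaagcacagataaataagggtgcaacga
Gbp2: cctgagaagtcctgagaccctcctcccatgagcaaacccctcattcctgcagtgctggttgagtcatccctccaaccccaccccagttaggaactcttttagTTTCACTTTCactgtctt
Irgm1: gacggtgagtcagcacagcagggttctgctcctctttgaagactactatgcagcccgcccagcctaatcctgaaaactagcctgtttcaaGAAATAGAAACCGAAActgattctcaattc
Igtp: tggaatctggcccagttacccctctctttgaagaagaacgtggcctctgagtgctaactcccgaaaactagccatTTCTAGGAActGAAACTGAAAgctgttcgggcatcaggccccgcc
Irgm2: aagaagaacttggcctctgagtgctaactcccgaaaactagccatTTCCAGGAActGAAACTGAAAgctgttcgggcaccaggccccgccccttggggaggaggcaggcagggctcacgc
In *Igtp* and *Irgm2* a GAS and an ISRE core stand 2 bases apart. With the motif pairs aligned, 87 of 90 bases of these promoters were identical (96.7%), with a longest identical run of 38 bases. *Irgm1* holds 2 overlapping ISRE cores and no GAS match. *Gbp5* has another GAS match, farther from the start site than the stretch shown. The annotated spans of *Irgm2* and *Gbp5* begin farther upstream, at 58199618 and 142493978, so not all annotated transcripts start at the window shown.

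The genes lie in a few clusters of GRCm38. *Gbp5* (ENSMUSG00000105504), *Gbp7* (ENSMUSG00000040253), *Gbp3* (ENSMUSG00000028268) and *Gbp2* (ENSMUSG00000028270) follow each other on the plus strand of chromosome 3, between 142493978 and 142638008. *Igtp* (ENSMUSG00000078853) and *Irgm2* (ENSMUSG00000069874) overlap on the plus strand of chromosome 11, from 58199556 to 58222782, while *Irgm1* (ENSMUSG00000046879) lies on the minus strand of that chromosome, from 48861968 to 48871683. *Mx1* (ENSMUSG00000000386, 97447035 to 97462907, minus strand) and *Mx2* (ENSMUSG00000023341, 97535308 to 97560900, plus strand) are on chromosome 16, and *Iigp1* (ENSMUSG00000054072) is on chromosome 18. *Irgm2* and *Igtp* share 162 exon bases on the same strand, and 637 exon bases of *Gbp7* overlap the processed pseudogene *Gm43802*, so the split of reads between these pairs is uncertain. *Mx2* is annotated as a polymorphic pseudogene, of which some mouse strains hold a disrupted copy.

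Libraries held between 24736829 and 37419071 counts. Of 23 pairs of a targeted KMT gene and a condition, 21 had lower RNA in every library than in every WT library, and the exceptions were *Suv39h2* in the libraries labelled *E1 S1S2* and *6KO1*. Levels below are normalized counts (counts divided by the library's TMM-scaled size) as mean ± SD of n = 3 libraries, and a gene is called where it differs at least 2-fold with an adjusted p of at most 0.01 in edgeR's quasi-likelihood test over all genes. All 10 GTPases had their lowest value of the condition in the second *E2* library and in the second *6KO2* library, where 33.7% and 35.9% of all tested genes were lowest. The members' median log2 distance from the other two libraries was -1.83 in *E2* and -0.98 in *6KO2*, and results for these conditions are given below with and without them where they change. The second WT library stood apart from the other two, with a chi-square per gene of 68.28 and 57.02 against them, beside 5.042 between these, and it enters all comparisons with WT. The 10 fibroblast markers summed to 172250 to 215880 in WT, 96944 to 108770 in *6KO1* and 224410 to 242150 in *E1E2 G9Gl*. In *6KO1* against WT, 5 of them were called lower and 0 higher, where 1900 and 3831 of 18565 tested genes were. The markers' median log2 fold change was -1.22, and *Thy1* averaged 0.293 there, beside 199 in WT. In *E1 S1S2* 5 were called lower and 0 higher (948 and 1235 of all tested genes). In *E1E2 G9Gl* 2 were called lower and 3 higher (1561 and 3113 of all tested genes).

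Markers of other cell types also differed between conditions, in an order only partly that of the GTPases. The 12 leukocyte markers summed to 165 to 185 normalized counts in the WT libraries, 249 to 299.9 in those of *6KO2*, 725 to 794 in those of *6KO1* and 848 to 903 in those of *E1E2 G9Gl*. Of their 9 tested genes, 5 were called higher in *6KO2*, 6 in *E1E2 G9Gl* and 6 in *6KO1*, and 1 was called lower in each of the 3, where 15.3%, 16.8% and 20.6% of all genes were called higher. Of all 18565 tested genes, 1000, 1561 and 1900 were called lower in these conditions. *Adgre1*, a defining macrophage gene, was at 0 in all 24 libraries, and *Ptprc*, the pan-leukocyte gene, averaged 0 in WT, 15.7 in *6KO1* and 47.7 in *E1E2 G9Gl*. Both genes held little of these sums, and the markers that held most of them are not named here. The 4 endothelial markers summed to 11.9 to 14.9 in WT, 100.3 to 138 in *6KO2*, 121 to 139.8 in *6KO1* and 67.4 to 87.9 in *E1E2 G9Gl*. The 4 epithelial markers summed to 30.9 to 50.2 in WT and 421 to 446 in *6KO1*, where *Krt8* alone averaged 423 and *Epcam* was called lower. Their sum was 218 to 282 in *E2*, above the 122 to 178 of *E1E2* and the 194 to 207 of *E1E2 G9Gl*. The part of these markers in the GTPase results was not tested. In bulk RNA, a change in the number of cells that hold a transcript and a change of the transcript per cell cannot be told apart.

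In WT cells the family was dominated by *Irgm1*. To compare genes, levels were expressed as CPM, the counts scaled to library size, per kilobase of exon. *Irgm1* stood at 9.89 and made up 75.2% of the summed level of the 10 genes, followed by *Gbp3* with 12.3% and *Gbp2* with 6.46%. The other 7 genes were at most 0.322 on this scale. The summed level was 13.2 in WT, 15.6 in *E1*, 19.6 in *E2*, 36.1 in *E1 S1S2*, 39.4 in *6KO2*, 52.5 in *E1E2*, 96.2 in *6KO1* and 105 in *E1E2 G9Gl*. The share of *Irgm1* was 22.3% in *6KO1* and 15.5% in *E1E2 G9Gl*, where *Gbp3* (23.6%) and *Igtp* (15.9%) were above it. *Iigp1*, at 0.0502% in WT, reached 7.42% there. These sums describe the condition means and were not tested.

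**Figure D1:**
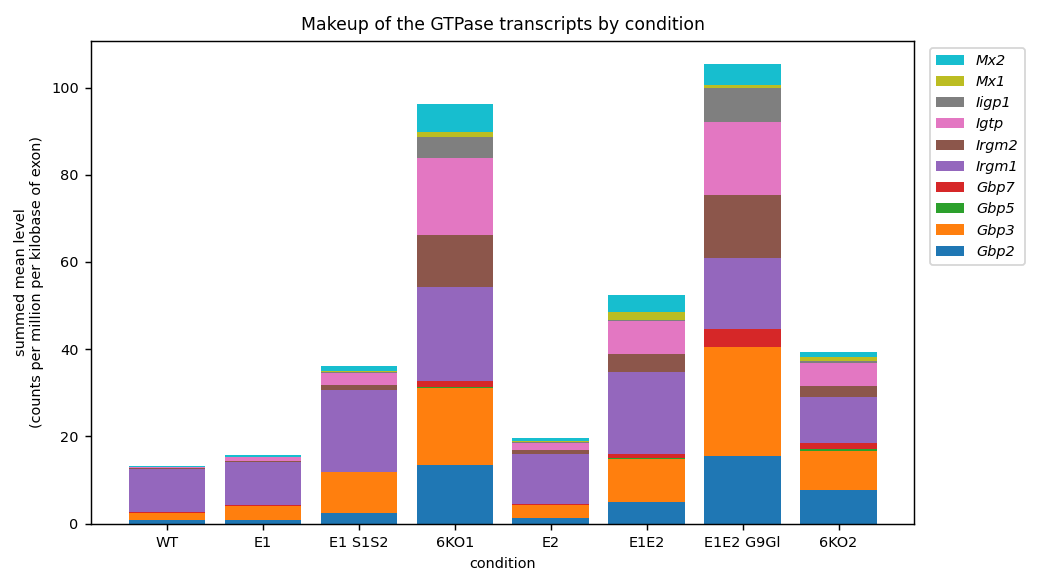
Stacked mean levels of the 10 GTPase genes (CPM per kilobase of exon) in each of the 8 conditions, each colour 1 gene. The bar is 13.2 high in WT, where *Irgm1* fills most of it, and 105 high in *E1E2 G9Gl*, where 5 genes each fill at least 13.6%.

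*Gbp2*, a GBP that coats bacteria and parasite vacuoles, rose in every mutant condition that combines the loss of *Eset1* with that of another KMT. Its normalized counts were 50.1, 62.1 and 50.2 in the WT libraries, 53.7, 47.4 and 64.2 in *E1* and 155, 146 and 166 in *E1 S1S2*. The *E2* libraries held 114, 29.6 and 107, those of *E1E2* 335, 329 and 288 and those of *E1E2 G9Gl* 1008, 1024 and 947. The *6KO1* libraries held 774, 878 and 894 and the *6KO2* libraries 550.2, 304 and 631. *E1* and *E2* overlapped WT, and all other conditions lay above it. Its log2 fold change against WT was 4.19 (SE 0.278, adjusted p = 4.43e-12, edgeR) in *E1E2 G9Gl*, the highest of the conditions, and 1.52 (SE 0.303, adjusted p = 0.000203, edgeR) in *E1 S1S2*, the smallest that was called.

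*Gbp3* and *Gbp7*, further GBPs of the chromosome 3 cluster, also peaked in *E1E2 G9Gl* but differed in *E1 S1S2*. *Gbp3* averaged 134 ± 27.2 in WT, 266 ± 25.3 in *E1* and 767 ± 6.9 in *E1 S1S2*. It averaged 734 ± 234 in *6KO2*, 813 ± 16.1 in *E1E2*, 1468 ± 93.3 in *6KO1* and 2061 ± 13.3 in *E1E2 G9Gl*. All 3 *E1 S1S2* libraries lay above WT, with a log2 change of 2.51 (SE 0.285, adjusted p = 1.13e-07, edgeR). *Gbp7* averaged 16.7 ± 4.71 in WT and 21 ± 3.77 in *E1 S1S2*, where the libraries overlapped and the log2 fold change was 0.31 (SE 0.411, adjusted p = 0.549, edgeR). It averaged 143 ± 12.4 in *E1E2*, 202 ± 70.2 in *6KO2*, 211 ± 2.98 in *6KO1* and 583 ± 45.2 in *E1E2 G9Gl*. *Gbp7* was thus raised in these 4 conditions, by 3.07 on the log2 scale in *E1E2* and by 5.10 (SE 0.286, adjusted p = 2.01e-13, edgeR) in *E1E2 G9Gl*.

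*Gbp5*, a GBP known to promote inflammasome assembly, had a different order of conditions and almost no RNA in WT. It had 1 read in the 3 WT libraries together, and its normalized counts were 0, 1.97 and 0 in *E1*, 9.52, 0 and 5.94 in *E2* and 5.48, 4.53 and 3.6 in *E1 S1S2*. They were 49.3, 36.5 and 30 in *E1E2*, 29.9, 33.9 and 46.9 in *6KO1* and 63.1, 36.6 and 86.2 in *6KO2*. The *E1E2 G9Gl* libraries, where *Gbp2*, *Gbp3* and *Gbp7* were highest, held 5.39, 2.31 and 2.59. *Gbp5* thus fell between *E1E2* and *E1E2 G9Gl*, with a difference of -3.42 (SE 0.555, adjusted p = 1.06e-05, edgeR) on the log2 scale, and rose again from there to *6KO2*, by 4.10 (SE 0.513, adjusted p = 4.28e-07, edgeR). Because a fitted fold change against 1 read depends on the prior count of the fit, its level against WT is given as a ratio of counts, which was 10.6 (95% exact counting interval 1.47 to 466) in *E1E2 G9Gl*, 118 (95% exact counting interval 20.7 to 4686) in *E1E2* and 189 (95% exact counting interval 33.4 to 7493) in *6KO2*. These intervals cover counting error only.

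*Irgm1*, *Irgm2* and *Igtp* encode the regulatory IRGs, which mark the membranes of the cell itself and hold the effector IRGs inactive there. *Irgm1* had 1240.3, 1824 and 1299 normalized counts in WT and 1343, 1469.8 and 1552 in *E1*. It had 2728, 2722 and 2789.9 in *E1 S1S2*, 3136, 2574 and 2541 in *E1E2* and 2898, 3206 and 3355 in *6KO1*, against 1734, 1219.6 and 2092 in *E2* and 1578, 1289.5 and 1753 in *6KO2*. The *E1E2 G9Gl* libraries held 2396, 2474 and 2349.6. The *E1*, *E2* and *6KO2* libraries overlapped WT, and those of the other 4 conditions lay above it. With all libraries *Irgm1* was called in *6KO1* alone, with 1.11 (SE 0.149, adjusted p = 5.36e-07, edgeR), while the changes in *E1 S1S2* (0.92) and *E1E2* (0.92) had adjusted p-values of 1.8e-05 and 2.64e-05 (edgeR) but did not reach 2-fold. Without the second WT library, which had the highest of the WT values, *Irgm1* was called in *E1 S1S2* (1.114, adjusted p = 6.09e-07, edgeR) and in *E1E2* (1.115, adjusted p = 1.05e-06, edgeR) as well. Its difference in *E1*, -9e-04, changed sign under other normalizations.

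*Irgm2* and *Igtp* behaved almost alike, and differed from *Irgm1* in range. *Irgm2* had 18.1, 14.6 and 13 normalized counts in WT, 33.2, 33.6 and 29.9 in *E1* and 110.4, 111 and 118 in *E1 S1S2*. The *E2* libraries had 103, 33.2 and 131, those of *E1E2* 431, 394 and 334 and those of *E1E2 G9Gl* 1326, 1326 and 1369. The *6KO1* libraries held 1038, 1143 and 1162 and the *6KO2* libraries 255, 139 and 332. Every mutant library lay above every WT library, including those of *E1*, where the log2 fold change was 1.08 (SE 0.506, adjusted p = 0.148, edgeR) and not called. *Irgm2* rose by 6.19 (SE 0.335, adjusted p = 1e-13, edgeR) in *6KO1* and by 3.99 (SE 0.372, adjusted p = 3.08e-09, edgeR) in *6KO2*. *Igtp* averaged 16.5 ± 3.22 in WT, 146 ± 12.4 in *E1 S1S2*, 269 ± 113 in *6KO2*, 387 ± 50.4 in *E1E2*, 856 ± 19.1 in *E1E2 G9Gl* and 909 ± 27.8 in *6KO1*. Over the 8 condition means, log2 levels of *Irgm2* and *Igtp* had a Pearson correlation of 0.994, a description that shares the overlapping exon bases of both genes.

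*Iigp1*, an effector IRG that disrupts parasite vacuoles, had 3 reads in the WT libraries together and up to 1184 normalized counts in *E1E2 G9Gl*. Its normalized counts were 1.95, 0.987 and 6.15 in *E1*, 5.95, 0 and 3.56 in *E2*, 17.2, 14.5 and 20.7 in *E1 S1S2* and 53.2, 35.4 and 50.6 in *E1E2*. They were 92.1, 43.4 and 118 in *6KO2*, 688, 738 and 700.2 in *6KO1* and 1118, 1184 and 1158 in *E1E2 G9Gl*. The libraries of *E1* and *E2* overlapped WT, and the *E1E2* and *6KO2* libraries overlapped each other. The ratio to the WT count was 47.3 (95% exact counting interval 15.8 to 232) in *E1E2*, 716 (95% exact counting interval 245 to 3476) in *6KO1* and 1164 (95% exact counting interval 398 to 5646) in *E1E2 G9Gl*, counting error only. The step from *E1 S1S2* to *6KO1* raised *Iigp1* by 5.33 (SE 0.255, adjusted p = 1.83e-14, edgeR) on the log2 scale, and the step from *E1E2* to *E1E2 G9Gl* by 4.62 (SE 0.226, adjusted p = 2.1e-14, edgeR).

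The Mx genes, which encode dynamin-like antiviral GTPases, did not share the peak of *Gbp2*, *Gbp3* and *Gbp7*. *Mx1* had 7.46, 3.65 and 6.02 normalized counts in WT, 32.1, 10.8 and 41.6 in *E2* and 255, 125 and 153 in *E1E2*, its highest condition. It had 56.1, 60.1 and 50.5 in *E1E2 G9Gl*, 74.5, 68.6 and 85.1 in *6KO2* and 101, 117 and 111 in *6KO1*. All *E1E2 G9Gl* libraries lay below all *E1E2* libraries, and *Mx1* fell with a difference of -1.68 (SE 0.26, adjusted p = 5.61e-06, edgeR) on the log2 scale. *Mx2* had 11.7, 11 and 11 in WT, 114, 61.7 and 160.2 in *6KO2*, 434, 324 and 295 in *E1E2*, 449.8, 451 and 461 in *E1E2 G9Gl* and 555, 561 and 608 in *6KO1*. Its *E1E2 G9Gl* libraries lay above those of *E1E2*, but the difference of 0.37 (SE 0.256, adjusted p = 0.217, edgeR) was not called.

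**Figure D2:**
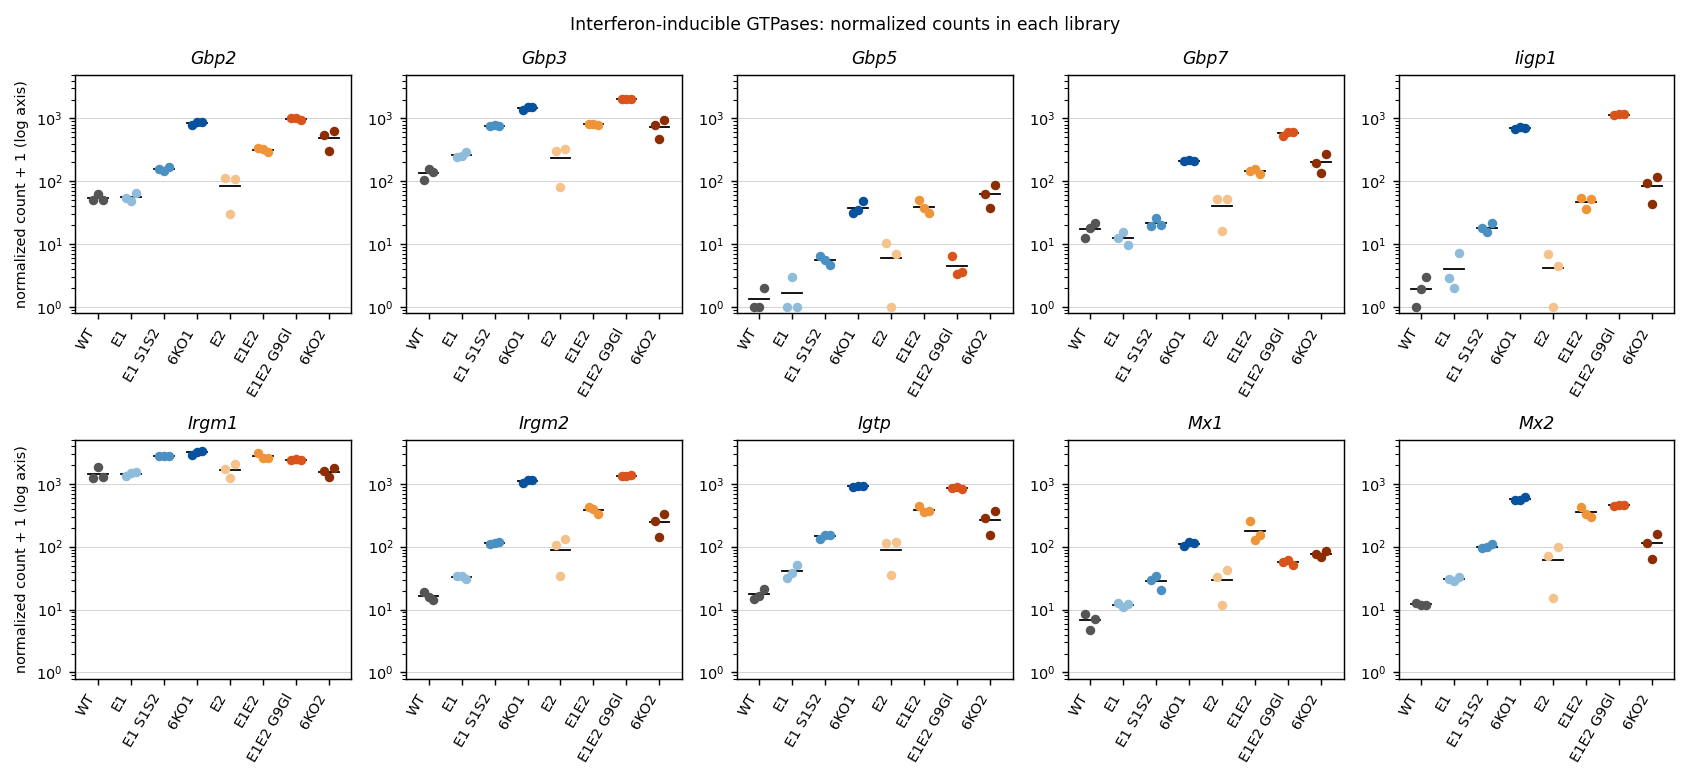
Normalized count + 1 on a log axis in each of the 24 libraries (points) with the condition mean (line), 1 panel per gene, conditions along the x axis. *Irgm1* stays between 1220 and 3355 throughout, while *Iigp1* runs from 0 to 1184, and *Gbp5* and *Mx1* drop at *E1E2 G9Gl* where most other panels peak.

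Against WT, the loss of *Eset1* alone left the family with 0 calls at the settings used here, and every line that lacked another enzyme as well had most of it raised. The 7 comparisons share the WT libraries. In *E1*, edgeR called 0 of 10 genes higher, where 2.27% of all tested genes were called higher, DESeq2 also called 0, and 4 genes had an unadjusted p under 0.05 in edgeR. Without the filter on low counts 3 were called higher (*Irgm2*, *Igtp* and *Mx2*), and 2 in a fit of the 6 libraries alone (*Gbp3* and *Mx2*). Shares of all genes were not computed for the unadjusted p or for these fits, so these counts have no background. All 3 *E1* libraries lay above all WT libraries for 5 genes (*Irgm2*, *Igtp*, *Mx1*, *Mx2* and *Gbp3*), and 14.3% of all genes did so. In *E1 S1S2*, 7 genes were called higher (background 6.65%), all but *Gbp5*, *Gbp7* and *Irgm1*. The members' median log2 fold change was 2.70 in *E1 S1S2* and 4.96 in *6KO1*, beside all-gene medians of -0.0048 and 0.062. In *6KO1* all 10 genes were called higher, where 20.6% of all genes were.

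In the second series the *Eset2* mutant already differed from WT before 4-OHT. In *E2*, 4 genes (*Irgm2*, *Igtp*, *Mx1* and *Mx2*) were called higher and lay above WT in all libraries, where 2.9% of all genes were called and 17.6% lay above WT in all libraries. Without the second *E2* library 8 genes were called, *Gbp2*, *Gbp3*, *Gbp5* and *Gbp7* being added, and without the third 2 were. In *E1E2*, 9 genes were called higher (background 5.51%), all but *Irgm1*, with a median of 4.60. In *E1E2 G9Gl*, 8 genes were called higher (background 16.8%), all but *Gbp5* and *Irgm1*, with a median of 4.65. In *6KO2*, 9 genes were called higher (background 15.3%), all but *Irgm1*, with a median of 3.66. The all-gene medians lay between -0.014 and 0.041 in these 4 comparisons. edgeR called no member lower in any of the 7 comparisons with WT, DESeq2 called 0 lower, and 0 had an unadjusted p under 0.05 in that direction.

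**Figure D3:**
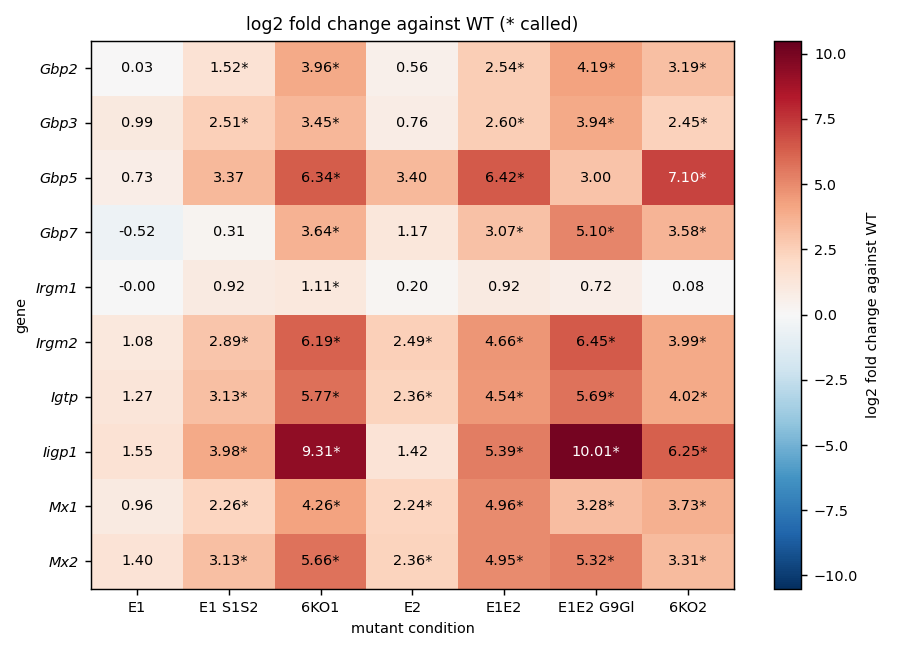
Log2 fold change against WT of the 10 GTPase genes (rows) in the 7 mutant conditions (columns), with called values starred. The *6KO1* column is starred throughout, the *E1* column nowhere, and the *Irgm1* row only in *6KO1*, while the values of *Gbp5* and *Iigp1* rest on 1 and 3 WT reads.

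Steps between related lines show where the family moved. Added *Suv39h1* and *Suv39h2* mutations in cells lacking *Eset1* (*E1 S1S2* against *E1*) went with 6 genes called higher (background 4.31%), namely *Gbp2*, *Gbp3*, *Irgm2*, *Igtp*, *Iigp1* and *Mx2*. *Igtp* rose by 1.86 (SE 0.327, adjusted p = 6.22e-05, edgeR) on the log2 scale. The same mutations added to *E1E2 G9Gl* (*6KO2* against *E1E2 G9Gl*) went with 7 genes called lower (background 9.12%) and 1 called higher, *Gbp5* (background 7.19%). *Iigp1* fell there with a log2 change of -3.76 (SE 0.209, adjusted p = 5.47e-13, edgeR) and *Irgm2* with one of -2.46 (SE 0.232, adjusted p = 4.76e-09, edgeR). The difference between both steps was tested as an interaction, chosen after the values were seen, and was called lower for 8 genes (background 8.76%), all but *Gbp5* and *Mx1*. It was -4.27 (SE 0.407, adjusted p = 8.59e-09, edgeR) for *Irgm2* and -1.56 (SE 0.211, adjusted p = 1.68e-06, edgeR) for *Irgm1*, whose single steps were 0.92 and -0.64 and did not reach 2-fold. Without the second *6KO2* library, 6 genes were called lower in *6KO2* against *E1E2 G9Gl* (*Gbp2* changed by -0.75). With all libraries *Gbp2* was at the fold minimum (-1.0023). It was also not called without the first (-0.9925) or the second (-0.999) *E1E2 G9Gl* library. The same held with factors from genes and repeats (-0.9897) and in a fit of only the 6 libraries compared (-0.9979).

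The family split in the step that adds *G9a* and *Glp* mutations to *E1E2*, which compares single clones. From *E1E2* to *E1E2 G9Gl*, 6 genes were called higher (background 14.8%), the 3 GBPs other than *Gbp5* along with *Irgm2*, *Igtp* and *Iigp1*. *Gbp5* and *Mx1* were called lower (background 6.78%), and *Irgm1* and *Mx2* were not called. From *E1 S1S2* to *6KO1*, which adds mutations of *G9a*, *Glp* and *Eset2*, 8 genes were called higher (background 16.3%), among them *Gbp5* with 2.97 (SE 0.478, adjusted p = 1.09e-05, edgeR) and *Mx1* with 1.99 (SE 0.282, adjusted p = 1.93e-06, edgeR). *Gbp3* (0.94) and *Irgm1* (0.20) were not called in that step.

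Treatment of the *Eset2* mutant clone with 4-OHT, which deletes *Eset1* (*E1E2* against *E2*), went with 9 of 10 genes called higher (background 2.32%). Their changes ran from 1.84 for *Gbp3* to 3.97 for *Iigp1* on the log2 scale. The deletion and the exposure to 4-OHT cannot be told apart in this step. The excepted gene, *Irgm1*, changed by 0.71 (SE 0.149, adjusted p = 0.00121, edgeR). The step of the parent line (*E1* against WT) had 0 calls. A test of the difference between the 2 steps, chosen after the values were seen, called it higher for *Gbp2*, by 1.95 (SE 0.453, adjusted p = 0.00404, edgeR), and for *Gbp7*, by 2.43 (SE 0.552, adjusted p = 0.00343, edgeR) (background 2.01%). For the other 8 genes the steps were not shown to differ, and 1 gene was called where any of 5 single WT or *E1* libraries was left out. Without the second WT library it was *Gbp7*, with *Gbp2* at 1.845 (adjusted p = 0.0128, edgeR).

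Both lines that lack all 6 enzymes had most of the family raised, every member in *6KO1* and every member but *Irgm1* in *6KO2*. Several genes were at unequal levels in these lines. *6KO1* exceeded *6KO2* in 5 genes (background 9.77%), which were *Iigp1*, *Irgm1*, *Irgm2*, *Igtp* and *Mx2*. *Iigp1* was higher in *6KO1* by 3.06 (SE 0.208, adjusted p = 1.83e-11, edgeR) on the log2 scale and *Mx2* by 2.36 (SE 0.282, adjusted p = 2.05e-07, edgeR). *Irgm1* was no longer called without the second *6KO2* library (0.9192, adjusted p = 5.79e-05, edgeR) or without the third *6KO1* library (0.9854, adjusted p = 2.23e-05, edgeR). *Gbp3* lay just under the fold minimum, at 0.9987, and was called by DESeq2 and with RLE factors (1.003 in both). *Gbp7* differed by 0.057 (SE 0.214, adjusted p = 0.836, edgeR), with overlapping libraries, and by -0.16 without the second *6KO2* library. *Gbp5* had the opposite sign in *6KO1* against *6KO2*, -0.76 (SE 0.311, adjusted p = 0.0405, edgeR), which was not called with all libraries and was called without the second *6KO2* library.

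**Figure D4:**
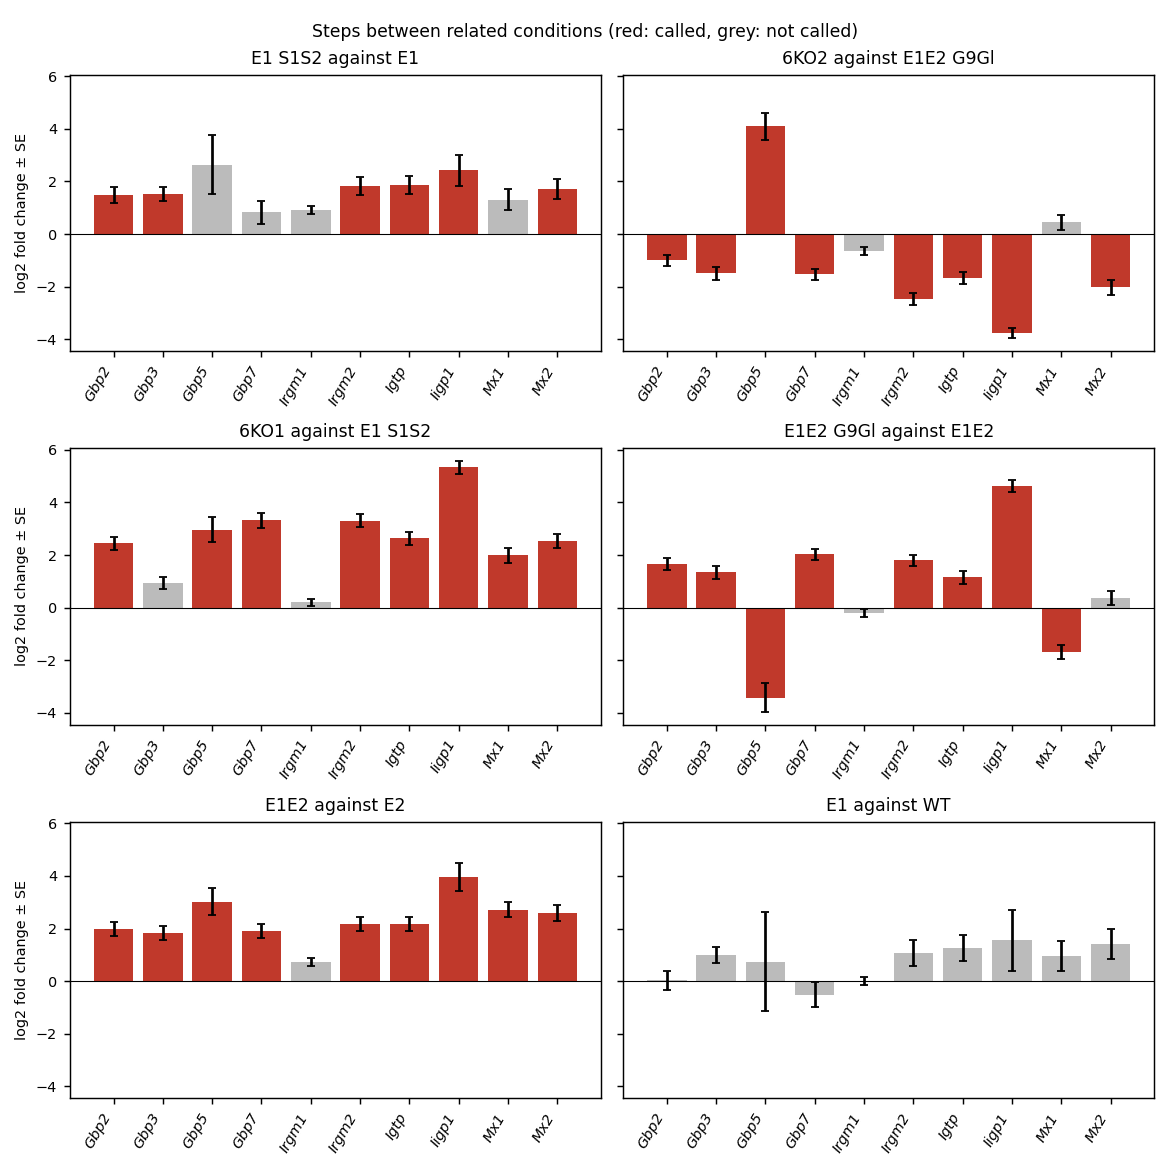
Log2 fold change ± SE of each GTPase gene in 6 steps between related conditions, red where called and grey where not. The bars of *E1 S1S2* against *E1* point up and most of those of *6KO2* against *E1E2 G9Gl* point down, with *Gbp5* at 4.10 in the second.

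The order of conditions was close for most members. *Gbp2*, *Gbp3*, *Gbp7*, *Iigp1* and *Irgm2* were highest in *E1E2 G9Gl* and *Irgm1*, *Igtp* and *Mx2* in *6KO1*. *Gbp5* was highest in *6KO2* and *Mx1* in *E1E2*. In *Gbp2*, from low to high, the order was WT, *E1*, *E2*, *E1 S1S2*, *E1E2*, *6KO2*, *6KO1* and *E1E2 G9Gl*, and the neighbours whose libraries overlapped were WT with *E1*, *E1* with *E2* and *E1E2* with *6KO2*. *Iigp1* had the same order with the same overlaps. In *Mx1* the order was WT, *E1*, *E1 S1S2*, *E2*, *E1E2 G9Gl*, *6KO2*, *6KO1* and *E1E2*, with overlap only between *E1 S1S2* and *E2*.

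A further list held 19 other interferon-inducible GTPase genes, of which 17 were tested. Against WT, 1 was called higher in *E2* (background 2.9%), 7 in *E1 S1S2* (background 6.65%) and 14 in *E1E2* (background 5.51%). In *6KO2* 16 were called higher (background 15.3%), in *E1E2 G9Gl* 16 (background 16.8%) and in *6KO1* 17 (background 20.6%). The list's median log2 fold change was 7.15 in *6KO1* and 7.63 in *E1E2 G9Gl*. Among the genes these medians cover, *F830016B08Rik*, *Gm4841* and *Gbp10* had no WT read, and *Gbp4* and *Gm4951* had 1. Fitted changes of such genes depend on the prior count of the fit. From *E1E2 G9Gl* to *6KO2*, 15 of the 17 were called lower (background 9.12%). *Gm4951* and *F830016B08Rik*, IRG genes near *Iigp1*, averaged 551 ± 65.6 and 454 ± 24.2 in *6KO1*, but 7.54 ± 3.635 and 6.93 ± 3.577 in *6KO2*. *F830016B08Rik* had no read in WT and was at least 458-fold higher in *6KO1*, against a floor of 3 counts over the WT group. *Gm4841*, also without a WT read, was at least 350.1-fold higher in *6KO1*, where it averaged 347 ± 4.22, beside 2.55 ± 1.26 in *6KO2*. *Gbp10* was at least 186-fold higher in *E1E2 G9Gl*. *Gbp4* averaged 0.304 ± 0.527 in WT and 634 ± 32.5 in *6KO1*, and *Tgtp1* 5.48 ± 5.08 and 1976 ± 162. In *6KO2* they averaged 119 ± 40.3 and 204 ± 59.4. *Tgtp1* and *Tgtp2* are near-identical copies, as are *Gvin1* and *Gm4070*, so their split is uncertain. *Gm12250*, named after its values were seen, was the 1 gene of the list called lower from *E1E2* (41.2 ± 9.84) to *E1E2 G9Gl* (4.24 ± 3.86), with a log2 change of -3.23 (SE 0.548, adjusted p = 1.92e-05, edgeR).

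**Figure D5:**
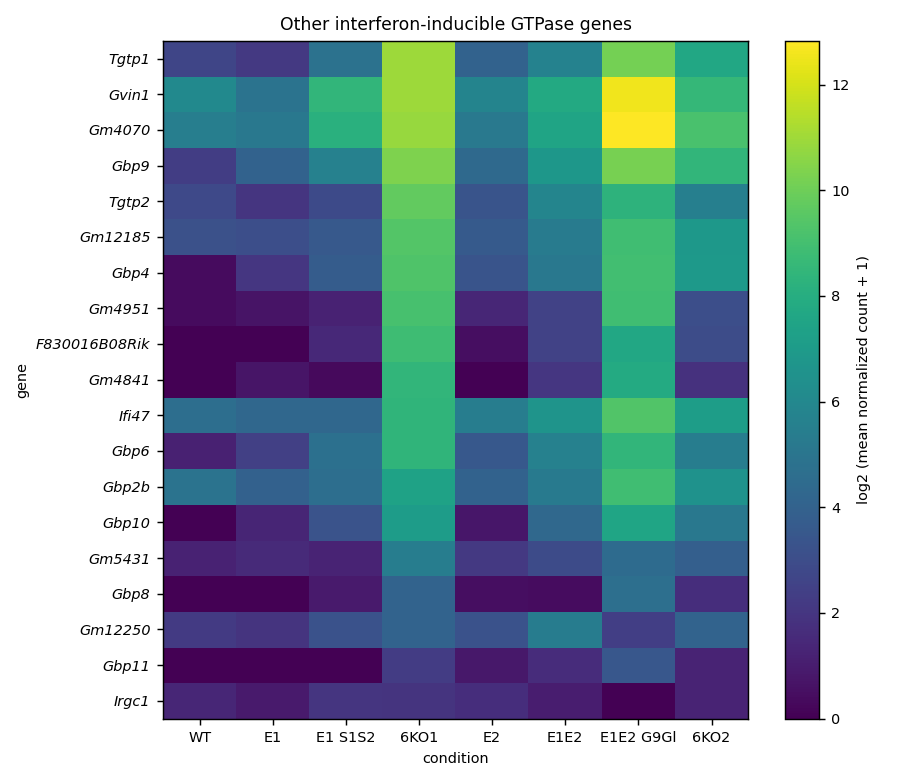
Mean normalized count + 1 on a log2 colour scale for the other 19 interferon-inducible GTPase genes (rows, ordered by *6KO1* level) in the 8 conditions (columns). The *6KO1* and *E1E2 G9Gl* columns are brightest, and *Gm12250* is brightest in *E1E2*, at 41.2.

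Of 23 genes of interferon signalling, 18 were tested, and *Jak2*, *Stat2*, *Irf7*, *Irf9*, *Nlrc5* and *Usp18* were among those called in both *6KO1* and *E1E2 G9Gl*. Against WT, 7 were called higher in *6KO1* (background 20.6%), 7 in *E1E2 G9Gl* (background 16.8%) and 7 in *E1E2* (background 5.51%). In *E1 S1S2* 6 were called higher (background 6.65%), and in *6KO2* 6 (background 15.3%). *Irf9* and *Stat2*, which act together at the ISRE, averaged 362 ± 15 and 443 ± 55.3 in WT and 2367 ± 65.9 and 1643 ± 77 in *6KO1*. *Irf7*, which drives type I interferon genes, rose by 7.06 (SE 0.33, adjusted p = 6.72e-15, edgeR) in *6KO1*. *Nlrc5*, a regulator of MHC class I genes, averaged 26 ± 1.21 in WT and 3594 ± 277 in *6KO1*, and *Usp18*, a feedback inhibitor of the type I receptor, 4.48 ± 2.62 and 1731 ± 132. In *6KO2* these 2 genes averaged 554 ± 73.5 and 203 ± 120. *Irf1*, which drives GBP genes, averaged 3740.0 ± 556 in *E1E2* and 1659 ± 79.3 in *E1E2 G9Gl*, a log2 change of -1.17 (SE 0.125, adjusted p = 2.26e-08, edgeR) and the 1 gene of this list called lower in that step. Against WT, *Irf1* changed by 0.82 (SE 0.123, adjusted p = 2.91e-06, edgeR) in *6KO1*. Of the listed interferon genes, *Ifng* and *Ifnb1*, named after their values were seen, were near the floor. There were 0 reads of *Ifng* in every condition. *Ifnb1* had 15 reads over the *6KO1* libraries, 7 over *E1E2*, 7 over *6KO2*, 4 over *E1E2 G9Gl* and 0 in WT. Values of the listed *Ifna2* and *Ifna4*, and of *Ifnb1* in the remaining conditions, are not given here. Interferon genes outside the list were not examined.

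A list of partner genes that act with the GTPases at vacuoles and in the inflammasome had 19 entries, of which 18 were found and 17 tested. Against WT, 6 were called higher in *6KO2* (background 15.3%), 5 in *E1E2 G9Gl* (background 16.8%) and 5 in *6KO1* (background 20.6%), with a median log2 fold change of 0.64 in *6KO1*. None of the 17 was called lower in these 3 comparisons, while the *E1E2* comparison had 1 called lower, that of *E2* 1 and that of *E1 S1S2* 2. Of all 18565 tested genes, 597, 596 and 948 were called lower in *E1E2*, *E2* and *E1 S1S2*. The 5 genes of *6KO1* were *Rnf213*, *Trim21*, *Aim2*, *Casp1* and *Casp4*. *Aim2*, a sensor of cytosolic DNA, averaged 102 ± 20.9 in WT, 68.6 ± 9.16 in *E1* and 15.65 ± 3.67 in *E1 S1S2*. *Aim2* was already at 5.06 ± 0.774 in *E2*, before 4-OHT, and averaged 5.38 ± 4.38 in *E1E2* and 799 ± 24.1 in *E1E2 G9Gl*. It was called lower than in WT in *E1E2*, at -4.18 (SE 0.282, adjusted p = 4.35e-11, edgeR) on the log2 scale, and called higher in *E1E2 G9Gl*, at 2.96 (SE 0.141, adjusted p = 1.05e-14, edgeR). *Casp1*, the inflammasome protease, had no read in WT and was at least 31.1-fold higher in *6KO1*. *Casp4*, which senses lipopolysaccharide released with the help of GBPs, averaged 109 ± 22.2 in WT and 830.4 ± 65.5 in *6KO1*. *Rnf213*, an ubiquitin ligase that coats bacteria, averaged 8488 ± 1834 and 34304 ± 1485, and *Trim21*, a cytosolic antibody receptor, 73.4 ± 17.2 and 467 ± 23.3.

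The genes whose pattern over the 8 condition means was most like the mean of the 10 members were *Ddx58* (Pearson r 0.987), *Plscr2* (0.980), *Misp* (0.979), *Xaf1* (0.976) and *Slfn8* (0.976), out of 9681 genes whose condition means span at least 1 log2 unit. These correlations share the same libraries and are a description. *Ddx58*, the RNA sensor RIG-I, averaged 635 normalized counts in WT and 4295 in *6KO1*, and *Xaf1* 22 and 1566. *Misp* was near the detection limit, with 2.77 in WT.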

How the data were processed

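RNA-seq counts of 24 cultures were analysed. Per the labels and the methods of the study, the authors trimmed paired reads with cutadapt 1.8.1, aligned them to GRCm38 with STAR 2.5.2b, and deposited whole-number counts per gene and repeat element from TEtranscripts, without normalization. The libraries were made with a stranded kit, and the strand setting of the counting is not given in the sources used here. TEtranscripts can share reads among near-identical genes, so levels of such copies carry the error of that sharing. All columns were matched to a sample by name.

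Conditions followed the genotype and the sample titles. Genes with low counts in all conditions were removed with edgeR's filterByExpr (edgeR 4.0.16, limma 3.58.1, R 4.3.3), TMM factors were computed from genes, and 13 comparisons were tested with the quasi-likelihood test in 1 fit over all libraries, two-sided, with Benjamini-Hochberg adjustment over 18565 genes. Genes were called at a 2-fold difference or more (1 on the log2 scale) together with an adjusted p no higher than 0.01. SE is the log2 fold change divided by the square root of F. Levels per kilobase use the exon bases of the GENCODE annotation. The rule for named genes takes all 10 members, of each list up to 6 genes called in *6KO1* or *E1E2 G9Gl* with the largest change, *Irf1* and *Irf9* in every case, and the 5 genes most like the members. A further gene that the rule takes is not reported here. The members and lists were chosen with earlier results of these data known. Steps were tested on simulated data. The smallest exact permutation p for groups of 3 libraries is 0.1. Replicate libraries differed by more than counting error, with a chi-square per gene of 2.237 to 25.22, and of 57.02 and 68.28 for the pairs that hold the second WT library. Counts over 24736829 per library limit precision mainly for *Gbp5* and *Iigp1* in WT.

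Alternatives were DESeq2 1.42.0, RLE factors, factors from genes and repeats, no filter on low counts, no fold change minimum, genes with a mean normalized count above 100 alone, an adjusted p of at most 0.05, only the 6 libraries compared, the replicate number as a block, and each library left out in turn. Leaving out the second *E2* and *6KO2* libraries together, and the 2 interaction tests, were chosen after seeing the data. Background shares of all genes were computed at the main settings alone. Figures were drawn with matplotlib 3.10.9.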

Additional observations from a re-analysis of the deposited data

Results flagged for a closer look

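The response of 8 genes to added *Suv39h1* and *Suv39h2* mutations differed between cells lacking *Eset1* and *E1E2 G9Gl* cells, by a test of the difference itself (edgeR, adjusted over all genes, contrast chosen after the values were seen). The log2 difference, the step from *E1E2 G9Gl* to *6KO2* minus the step from *E1* to *E1 S1S2*, was -6.188 for *Iigp1* (adjusted p = 1.1e-08), -4.274 for *Irgm2* (8.59e-09), -3.741 for *Mx2* (6.21e-07) and -3.532 for *Igtp* (1.35e-07). It was -3.015 for *Gbp3* (adjusted p = 2.5e-07), -2.493 for *Gbp2* (6.1e-06), -2.358 for *Gbp7* (0.000279) and -1.56 for *Irgm1* (1.68e-06). In each of these genes the first step was negative and the second positive in the fit. Both steps compare single clones.

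The response to 4-OHT differed between the *Eset2* mutant clone and its parent for *Gbp2*, by 1.954 on the log2 scale (adjusted p = 0.00404, edgeR), and for *Gbp7*, by 2.43 (adjusted p = 0.00343, edgeR), by the same kind of test. In both genes the libraries of *E1* overlapped WT, and those of *E1E2* lay above *E2*.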

How the results depend on the processing

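DESeq2, RLE factors, factors from genes and repeats, an adjusted p of at most 0.05 and no fold change minimum moved none of the counts of called members by more than 1.5 times. Without a filter on low counts, 3 members were called higher in *E1* against WT in place of 0, and 5 in the difference of the 4-OHT steps in place of 2. With the 6 libraries compared alone, 2 were called higher in *E1* and 2 in *E2* in place of 4. With a mean normalized count above 100, *Gbp5* and *Mx1* were not tested, and 0 members were called lower from *E1E2* to *E1E2 G9Gl* and 0 higher from there to *6KO2*. Without the second *E2* and *6KO2* libraries, 8 members were called higher in *E2* and 1, *Gbp5*, was called lower in *6KO1* against *6KO2*.

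Leaving out single libraries gave 2 to 8 members called higher in *E2* (2 without the third *E2* library, 8 without the second), 1 to 2 in the difference of the 4-OHT steps, and 0 to 1 called lower in *6KO1* against *6KO2* (1 without the second *6KO2* library). The other counts stayed within 1.5 times. Small differences changed sign. *Irgm1* in *E1* was 0.00234 with RLE factors, 0.00265 without the filter, 0.004227 above a mean of 100, 0.01483 with 6 libraries and 0.002866 with DESeq2, and -0.1023 to 0.1978 with single libraries left out. With single libraries left out, *Gbp2* in *E1* ranged from -0.1036 to 0.1437, *Gbp5* in *E1* from -1.864 to 2.597, *Irgm1* in *6KO2* from -0.0221 to 0.2779, *Gbp7* in *6KO1* against *6KO2* from -0.1634 to 0.3364 (-0.1635 without both second libraries), and the *Suv39h* step difference of *Gbp5* from -1.135 to 2.012. None of these was called. The cause was not tested.

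Replicate numbers of the titles did not pair the libraries, since same-numbered deviations correlated between -0.291 and 0.24. With the replicate number as a block, 10 members were called higher in *6KO1* against WT and 4 in *E2*, and of 150 member differences 149 kept their direction and call, while *Gbp3* in *6KO1* against *6KO2* (1.023, adjusted p = 0.000817, edgeR) passed the fold minimum. Depth limits *Gbp5* and *Iigp1* in WT, where 1 and 3 reads were found.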
